A study of Mus musculus with 10 samples.

Results

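To place a heterochromatin mark against cohesin in Arid1a wildtype (WT) hepatocytes, the summits of H3K9me3 and of Rad21 were compared across the autosomes of AB17 cells. Every autosomal summit of the 2 lists was a member, and no summit was chosen by its value. The comparison held 241713 autosomal summits, 141657 of H3K9me3 and 100056 of Rad21. The 8 chromatin immunoprecipitation sequencing (ChIP-seq) lists analysed held 819400 summits with no limit to autosomes. AB17 is 1 hepatocyte line isolated from a C57BL/6 mouse with loxP sites around an exon of Arid1a (Arid1a fl/fl). It was made immortal by the SV40 large T antigen and carries a transduced, activated H-Ras. WT cells had received an adenovirus carrying GFP (Ad-GFP), which leaves Arid1a intact. Knockout (KO) cells of the same line had received an adenovirus carrying Cre recombinase (Ad-Cre), and their H3K9me3 list was used beside the WT lists. Both genotypes carried the large T antigen and the H-Ras, so neither stands for a normal hepatocyte. The lists hold no expression values, and neither hepatocyte identity nor the loss of Arid1a could be checked from them.

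Rad21 is the kleisin subunit that closes the cohesin ring. Cohesin extrudes chromatin loops and is held at many sites by the zinc finger protein Ctcf, and it also gathers at active promoters and enhancers. H3K9me3 is laid down by Suv39h and Setdb1 methyltransferases, is bound by the HP1 proteins (Cbx1, Cbx3 and Cbx5) and marks constitutive heterochromatin over satellites, transposon copies and zinc finger gene clusters, where transcription is low. In many tissues the mark and cohesin therefore occupy largely different chromatin.

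For every peak the lists gave its summit and a value that was read as the −log10 q of the peak caller. The lists have no header, and this reading rests on the values themselves. With 1 library per group there was no replicate to check a difference against, and no difference was tested. H3K9me3 summits were dense and weak, at 57.5 per Mb, with a median −log10 q of 2.64 and 5787 summits (4.09%) at 5 or more. Rad21 gave 40.6 summits per Mb with a median of 3.34, and 25899 of them (25.9%) reached 5. Read depth is unknown, and −log10 q grows with it, so it served only to rank summits within a list. A partner was a summit of the other list at most 1 kb away. Each share is given with its 95% Wilson interval, which covers counting error only, and beside the mean and range of the same share after the partner list had been moved by 10, 20, 30, 40 or 50 kb to either side, 10 displacements in all. The ratio of the observed to the displaced share is called the observed-to-displaced ratio, and 1 means as many partners as at nearby positions.

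The sites below show the forms that the meeting of Rad21 and H3K9me3 took. Each window is 101 bases of the mm10 (GRCm38) plus strand centred on the Rad21 summit, or on the H3K9me3 summit for the last line, and capitals mark a match on either strand to the core of the Ctcf consensus, searched as CCA, any 2 bases, AG, any 2 bases and GGC. The Kitl window and the Plb1 window are 2 of the 8 best-ranked pairs at and away from promoters, the third line is the highest Rad21 summit that had H3K9me3 within 1 kb, the next is the third highest H3K9me3 summit with Rad21 within 1 kb among the autosomes searched for named sites, and the last is the highest H3K9me3 summit of these autosomes that had no Rad21 within 20 kb.
Kitl promoter, chr10:100016535-100016635: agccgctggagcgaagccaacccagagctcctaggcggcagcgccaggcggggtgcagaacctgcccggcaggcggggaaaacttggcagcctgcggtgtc
Plb1 intron, chr5:32322285-32322385: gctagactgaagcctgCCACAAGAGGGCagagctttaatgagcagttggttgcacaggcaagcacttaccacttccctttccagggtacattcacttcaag
C130026I21Rik promoter, chr1:85114864-85114964: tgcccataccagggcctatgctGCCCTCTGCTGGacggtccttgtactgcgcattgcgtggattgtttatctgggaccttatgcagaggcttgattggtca
Gm21738 exon, chr14:19415876-19415976: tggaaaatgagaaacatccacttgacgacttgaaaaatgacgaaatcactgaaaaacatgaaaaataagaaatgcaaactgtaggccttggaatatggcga
intergenic H3K9me3 without Rad21, chr3:5860521-5860621: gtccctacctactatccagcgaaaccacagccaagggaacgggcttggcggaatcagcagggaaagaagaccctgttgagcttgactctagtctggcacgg

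Kitl encodes the ligand of the receptor Kit. Its Rad21 summit lay 955 bp inside the gene, with a −log10 q of 29.0, an H3K9me3 summit of 5.59 at 207 bp, Ctcf at 61 bp, Arid1a at 232 bp and Brg1 at 401 bp, and the nearest KO H3K9me3 summit was 9809 bp away. At the Plb1 intron, where an antisense transcript (Gm36840) is also annotated, Rad21 (36.4) and Ctcf (47.6, at 29 bp) sat 376 bp from an H3K9me3 summit of 5.87. The third window lay inside C130026I21Rik and is labelled promoter because some annotated transcript start lay within 2 kb. The nearest start of a coding gene was that of A530032D15Rik, 5061 bp away, so the window is not at the gene start of C130026I21Rik. It held the highest Rad21 summit of the whole list, with a −log10 q of 125.6 and Ctcf 10 bp away. An H3K9me3 summit of 3.27, above the median of its own list, lay at 136 bp. At the Gm21738 exon, the summits of Ctcf, Brg1 and Arid1a all fell within 24 bp of that of Rad21, and H3K9me3 there reached 26.0. The Rad21 summit lay at a soft-masked base, which is annotated repeat sequence. The sites ranked 1 and 2 in this class, on chr12 and chr7, were soft-masked runs of ttaggg, with the summits of both lists 7 bp and 1 bp apart. Reads from other repeat copies cannot be told apart here from binding at the exon, and this was not tested. The chr3 site had a −log10 q of 49.99, a KO summit of 126.0 at 1 bp, and no Rad21 for 23939 bp.

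Counted from cohesin, 25333 of 100056 Rad21 summits had H3K9me3 within 1 kb, which is 25.3% (25.1 to 25.6), against 18.7% (18.2 to 19.2) when displaced. The observed-to-displaced ratio was 1.36 (1.34 to 1.37). Counted from the mark, 25245 of 141657 H3K9me3 summits had Rad21 within 1 kb, 17.8% against 13.1%, with the same ratio of 1.36 (1.35 to 1.38). In both directions the observed share lay above the highest of the 10 displaced shares. With only summits of −log10 q 5 or more kept in both lists the excess was gone, with ratios of 0.997 (0.868 to 1.14) from Rad21 and 0.992 (0.866 to 1.14) from the mark. The H3K9me3 list of KO cells lay on the other side, since KO H3K9me3 lay within 1 kb of 9.48% of the WT Rad21 summits and of 11.1% when displaced, a ratio of 0.856 (0.840 to 0.872). No Rad21 list of KO cells was analysed here, so the KO mark was set against cohesin positions of WT cells.

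The meeting of mark and cohesin was most frequent near transcript starts. Of the 28290 Rad21 summits within 2 kb of a start, called promoter summits here, 33.5% (33.0 to 34.1) had H3K9me3 within 1 kb against 19.8% (19.2 to 20.4) displaced, a ratio of 1.69. The ratio was 1.07 in exons, 1.18 in introns and 1.27 between genes, and 1.21 (1.20 to 1.23) for all 71766 Rad21 summits away from promoters. Among summits of 5 or more in both lists it was 1.43 (1.18 to 1.75) at promoters and 0.775 (0.639 to 0.939) away from them. In exons the observed share of 21.1% equalled the highest displaced share. From the side of the mark the contrast was wider. Promoter H3K9me3 summits had Rad21 in 37.0% of cases against 17.2% displaced, a ratio of 2.15, while those in exons, introns and intergenic sequence gave 1.11, 1.10 and 1.16. Promoters held 36.2% of the H3K9me3 summits that had Rad21 and 13.4% of those that had none. In KO cells the promoter ratio counted from Rad21 fell below 1 (0.761, with 7.85% against 10.3%). Counted from the KO mark it was 1.36 at promoters and 0.783 elsewhere, so the promoter value of the KO comparison depended on the side from which it was counted. Displaced positions were not matched for gene context. A promoter ratio therefore also holds the general density of the partner list at promoters, which cannot be told apart here from its relation to the other list.

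The excess was local. Within 100 bp of promoter Rad21 summits there were 0.259 H3K9me3 summits per kb against 0.115 per kb at 10 to 20 kb, which is 2.26 times the outer level. Away from promoters the centre held 0.179 per kb against 0.105, a factor of 1.70. Of the Rad21 summits with H3K9me3 within 1 kb, 16.0% had it at 100 bp or closer, against the 10.05% that a flat distribution would put there, and the median distance was 365 bp. Over all Rad21 summits the nearest H3K9me3 summit lay at a median of 3333.5 bp, at 2117.5 bp for promoter summits and 3877 bp for the others. The plot of summit density by distance shows these profiles out to 20 kb.

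**Figure D1:**
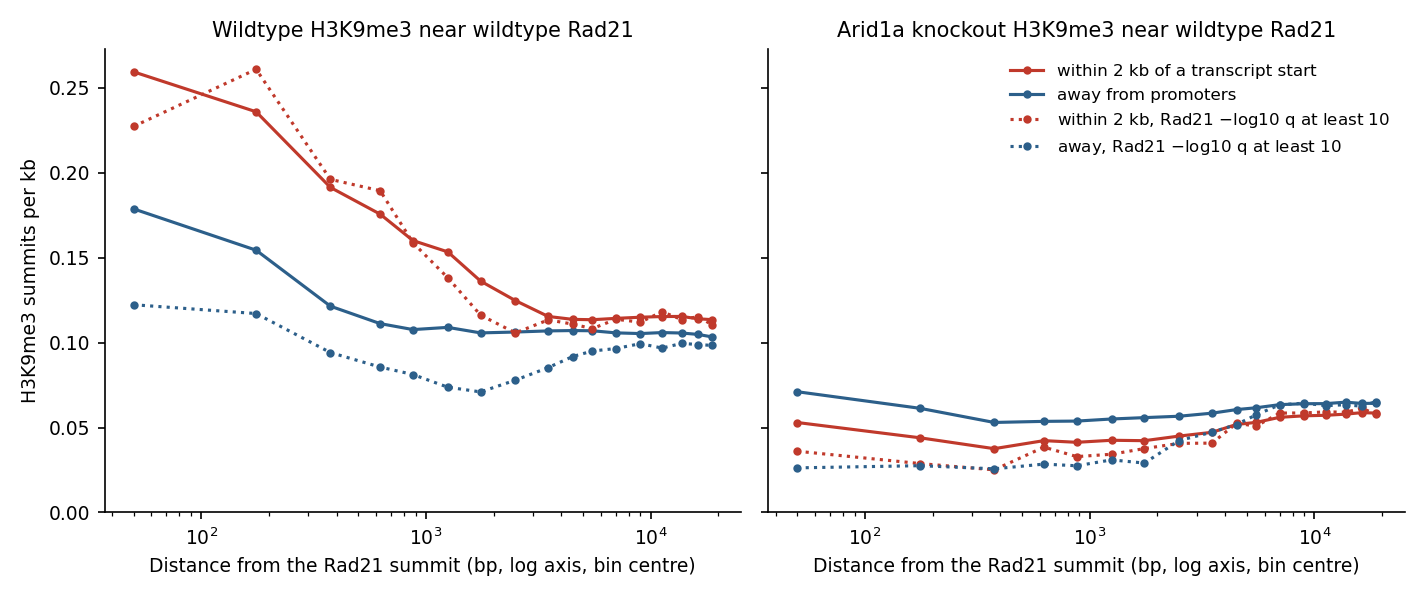
Density of H3K9me3 summits (summits per kb) against the distance from WT Rad21 summits (bp, log axis, bin centres to 20 kb), for the WT list on the left and the KO list on the right. Lines are Rad21 summits within 2 kb of a transcript start (red) or away from promoters (blue), dotted for Rad21 −log10 q of 10 or more. In WT cells the solid lines rise to 0.259 and 0.179 per kb at the centre, the dotted blue line falls to 0.0710 per kb at 1501 to 2000 bp, and in KO cells the dotted lines stand at 0.607 and 0.413 of their outer level at the centre.

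Strong cohesin sites away from promoters did not share the excess. For promoter Rad21 summits the ratio was 1.48 at −log10 q under 2.5, 1.70 from 2.5 to 5, 1.92 from 5 to 10 and 1.78 at 10 or more. Away from promoters it was 1.21, 1.27 and 1.16 in the lower classes and 1.02 (0.981 to 1.07) in the highest, where 17.3% of 10049 summits had H3K9me3 against 16.9% (16.1 to 17.8) displaced. Around these 10049 summits the profile had 2 features. A narrow centre of 0.122 per kb stood 1.24 times above the outer level of 0.0984, and on its flanks the density sank to 0.0710 per kb at 1501 to 2000 bp, 0.721 of the outer level, before it recovered by about 10 kb. The KO mark had no such centre, with 0.413 of its outer level within 100 bp and a lowest value of 0.404 at 251 to 500 bp. At the promoter summits of this class the WT centre reached 1.99 times the outer level.

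**Figure D2:**
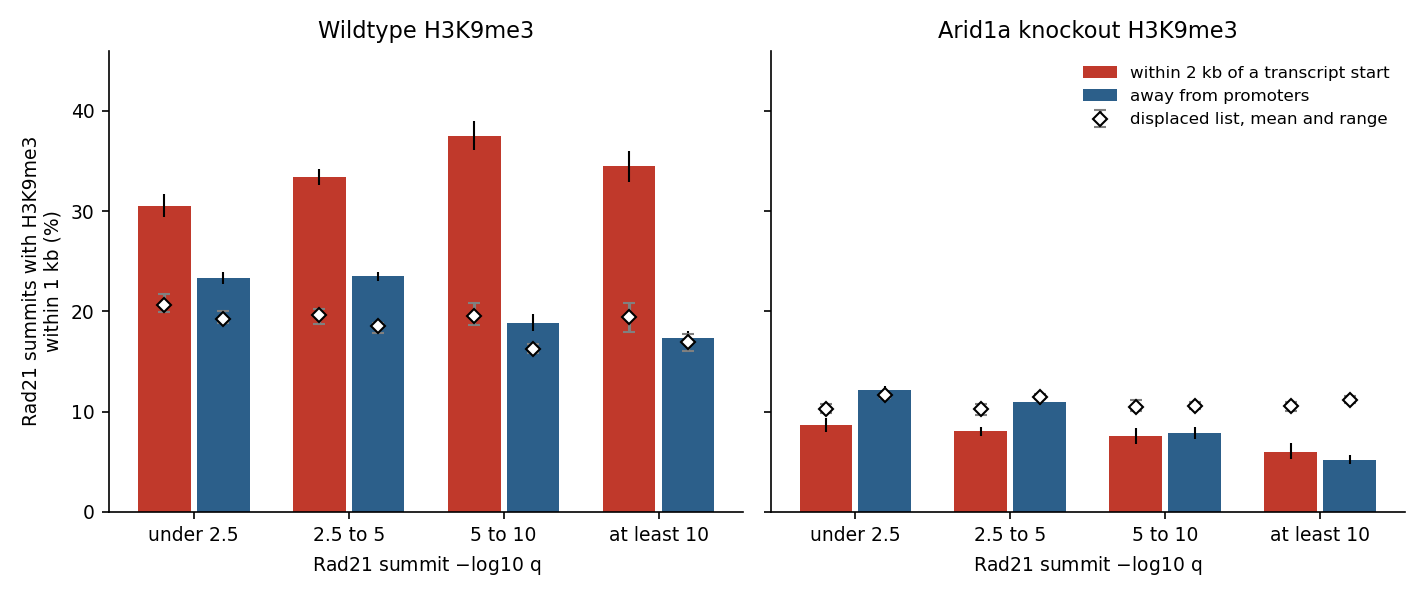
Share of WT Rad21 summits with H3K9me3 within 1 kb (%), by the −log10 q class of the Rad21 summit, for the WT mark on the left and the KO mark on the right. Bars are observed shares with 95% Wilson intervals, split by distance to a transcript start, and diamonds are the mean and range over 10 displacements. In WT cells all red bars exceed their diamonds while the last blue bar (17.3%) meets its diamond (16.9%), and in KO cells the bars at 10 or more (6.02% and 5.19%) lie below theirs (10.6% and 11.2%).

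Pairs held strong and weak summits of the mark about as the whole list did, since 1054 of the 25245 H3K9me3 summits with Rad21 were at 5 or more, and the ratio of this class was 1.38 (1.31 to 1.46) beside 1.36 for all. Split by both strengths, H3K9me3 of 5 to 10 gave a ratio of 1.47, 1.43 and 1.26 at Rad21 under 2.5, from 2.5 to 5 and from 5 to 10, and 0.570 (0.439 to 0.740) at Rad21 of 10 or more, where 56 summits (0.411%) had it against 0.720% displaced. The same strong Rad21 summits gave 1.29 and 1.24 for H3K9me3 under 2.5 and from 2.5 to 5, and 1.58 (0.724 to 3.44) for H3K9me3 of 10 or more, which rests on 6 summits. Among the 22470 pairs in which each summit was the nearest of the other list, 165 had 5 or more in both lists and 6 had 10 or more in both. Across these pairs the strengths showed Spearman's rho of −0.013, given as a description, since pairs share their libraries and neighbourhoods. Strong H3K9me3 summits sat among many others of their kind, with a mean of 10.2 further H3K9me3 summits within 20 kb for those of 10 or more against 4.62 for those under 2.5, and this while the number of Rad21 summits within 20 kb was 3.08 and 3.13.

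The few strongest H3K9me3 summits were an exception. Of the 319 at 10 or more, 86 had Rad21 within 1 kb, 26.96% (22.4 to 32.1) against 12.2% (8.15 to 16.3) displaced, a ratio of 2.21. These 86 differed from the common pairs. Their summits lay at soft-masked bases, the reference's repeat annotation, in 69.8% of cases, against 22.2% of the H3K9me3 summits under 2.5 with Rad21. Soft-masked bases were common in the whole class of 10 or more, since only 91 of the 319 summits lay at other bases. The soft-masked share therefore does not set the summits with Rad21 apart from the rest of their class. The median distance to Rad21 was 179.5 bp against 381 bp, and a Ctcf summit lay within 1 kb of 23.3% against 47.4%. Summits at soft-masked bases apart, 26 of 91 had Rad21, 28.6% (20.3 to 38.6) against 17.9% (13.2 to 29.7) displaced, which leaves the observed share inside the displaced range.

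Across all Rad21 summits, the presence of SWI/SNF went with the mark more than that of Ctcf did. Brg1, the ATPase of the complex, lay within 1 kb of 34.7% of Rad21 summits with H3K9me3 and of 18.3% of those without, and Arid1a of 28.8% and 14.6%. Away from promoters Ctcf was less frequent with the mark than without it (43.4% and 52.3%), and at promoters slightly more frequent (58.0% and 54.1%). H3K27me3, the Polycomb mark, lay near 10.1% and 13.2%. Promoter Rad21 summits with both Ctcf and Brg1 or Arid1a had H3K9me3 in 45.6% of cases against 20.7% displaced, a ratio of 2.20, which dropped to 1.31 with Ctcf alone, while those without Ctcf gave 1.94 with Brg1 or Arid1a and 1.23 with neither. Away from promoters the 27870 Rad21 summits with Ctcf alone had the mark no more than displaced positions, 15.9% against 16.0% (15.6 to 16.4), a ratio of 0.993. Their counterparts with Ctcf and Brg1 or Arid1a gave 1.39, those with Brg1 or Arid1a and no Ctcf 1.52, and those with none of these 1.22.

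**Figure D3:**
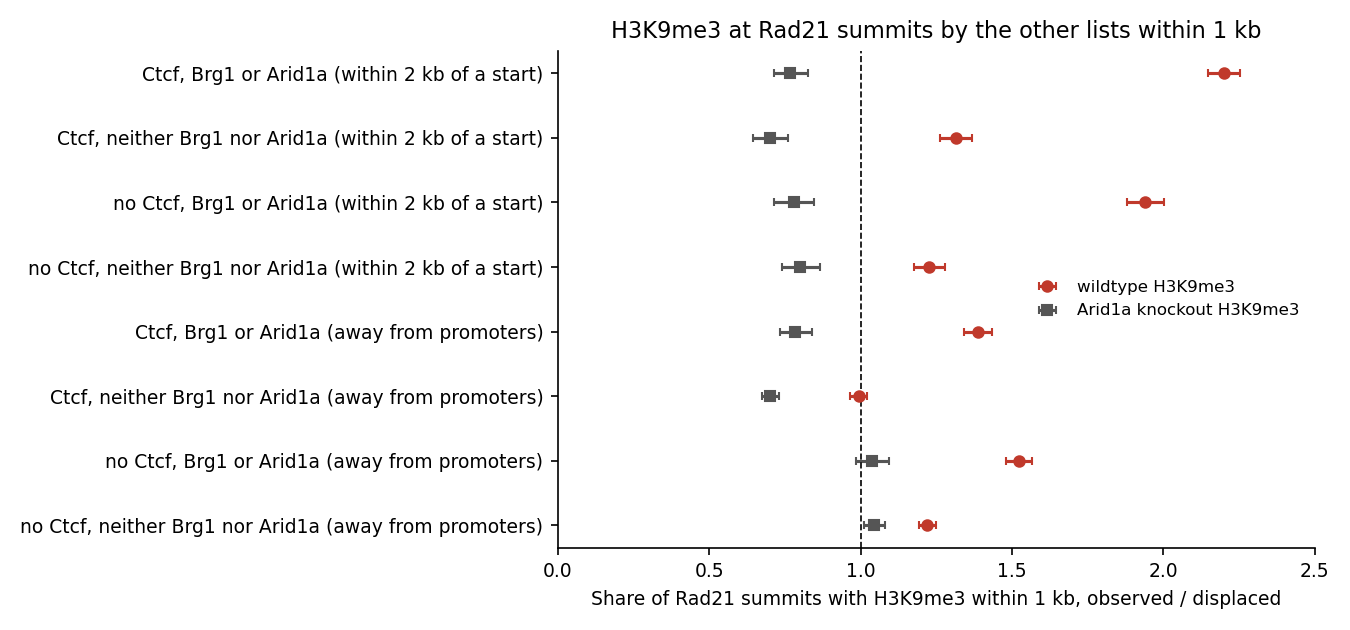
Observed-to-displaced ratio of the share of WT Rad21 summits with H3K9me3 within 1 kb (horizontal axis, no unit, dashed line at 1), by the WT Ctcf, Brg1 and Arid1a summits within 1 kb of the Rad21 summit and by gene context. Circles are the WT mark and squares the KO mark, with bars for the 95% Wilson interval of the observed share divided by the displaced mean. The WT values run from 0.993 (Ctcf alone, away from promoters) to 2.20 (Ctcf with Brg1 or Arid1a at promoters), and the KO values exceed 1 for Rad21 without Ctcf away from promoters (1.04 and 1.04).

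In KO cells the mark was below the displaced level at every promoter class of Rad21 in this split, with ratios from 0.699 to 0.801. Away from promoters it was 0.722 at Rad21 with Ctcf and 1.04 (1.01 to 1.07) at Rad21 without Ctcf. The WT mark met other factors in a similar way. Counted from the factor, the ratio with WT H3K9me3 was 1.43 for Brg1, 1.44 for Arid1a and 1.25 for Ctcf, and at promoters 1.82, 1.86 and 1.61, beside 1.69 for Rad21. H3K27me3 gave 0.926 in all and 1.15 at promoters. The promoter value of Rad21 thus lay among those of the other factors.

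Every autosome had an excess. The ratio for all Rad21 summits was lowest on chromosome 17 (1.25), highest on chromosome 14 (1.72) and above 1 on 19 of 19, both at promoters (1.48 to 2.02) and away from them (1.11 to 1.64). With KO H3K9me3 it ranged from 0.781 to 0.896 and was above 1 on 0 of 19. Shares varied more than ratios, from 7.52% of Rad21 summits with the mark on chromosome 13 to 32.0% on chromosome 11. Chromosome 14 had the fewest summits of both lists per Mb, 15.0 of Rad21 and 18.4 of H3K9me3.

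**Figure D4:**
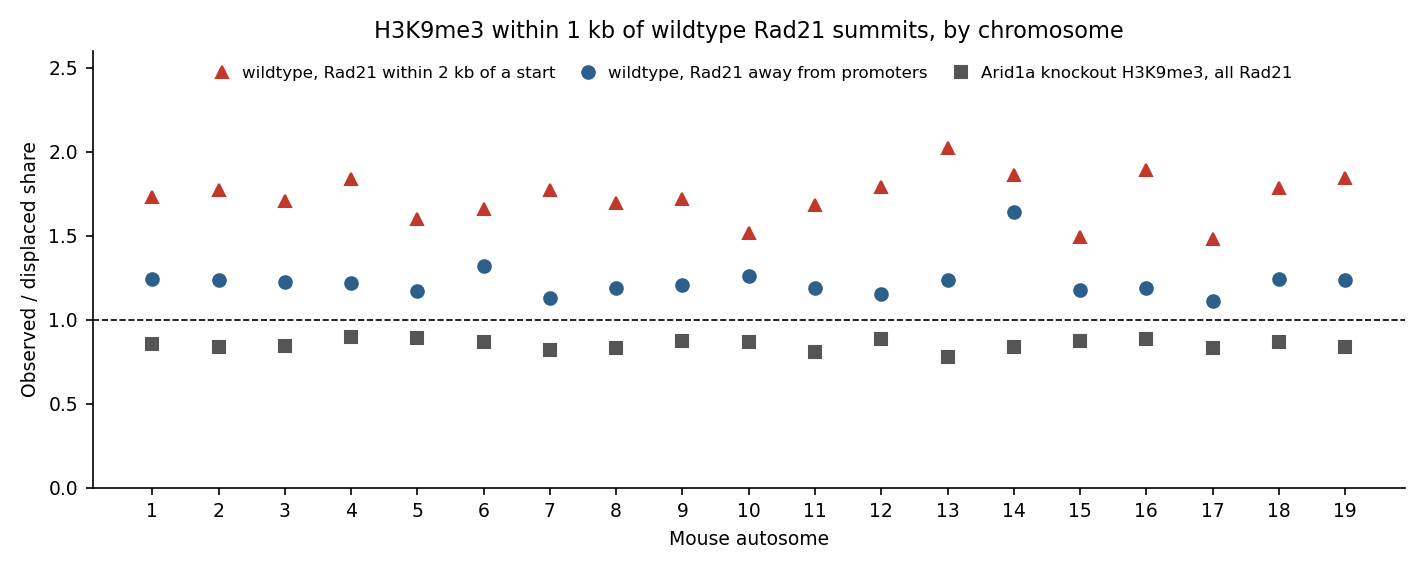
Observed-to-displaced ratio (vertical axis, no unit, dashed line at 1) of the share of WT Rad21 summits with H3K9me3 within 1 kb, for each mouse autosome. Triangles are the WT mark at Rad21 within 2 kb of a transcript start, circles the WT mark at Rad21 away from promoters and squares the KO mark at all Rad21 summits. All triangles and circles lie above 1 and all squares below it, between 0.781 and 0.896.

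WT H3K9me3 summits next to cohesin were found again in KO cells less often than the others. Among summits under 2.5, 9.67% of promoter summits with Rad21 were met by KO H3K9me3 at 1 kb or less, and 17.6% of those without Rad21, and the former lay below its displaced range of 10.2% to 11.5%. Away from promoters the shares were 17.2% and 27.5%. The gap was as clear from 5 to 10, with 31.1% (25.7 to 37.1) against 63.5% (59.1 to 67.8) at promoters and 61.5% against 75.7% elsewhere. At 10 or more it was gone, since 87.2% (78.5 to 92.7) of the 86 with Rad21 and 83.7% (78.4 to 87.9) of the 233 without were found again. Summits with and without Rad21 also differed in sequence. Soft-masked bases held 24.1% of the H3K9me3 summits with Rad21 and 42.5% of those without, and the median GC content within 250 bp was 49.3% and 46.1%. The part of these features in the gap was not tested.

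**Figure D5:**
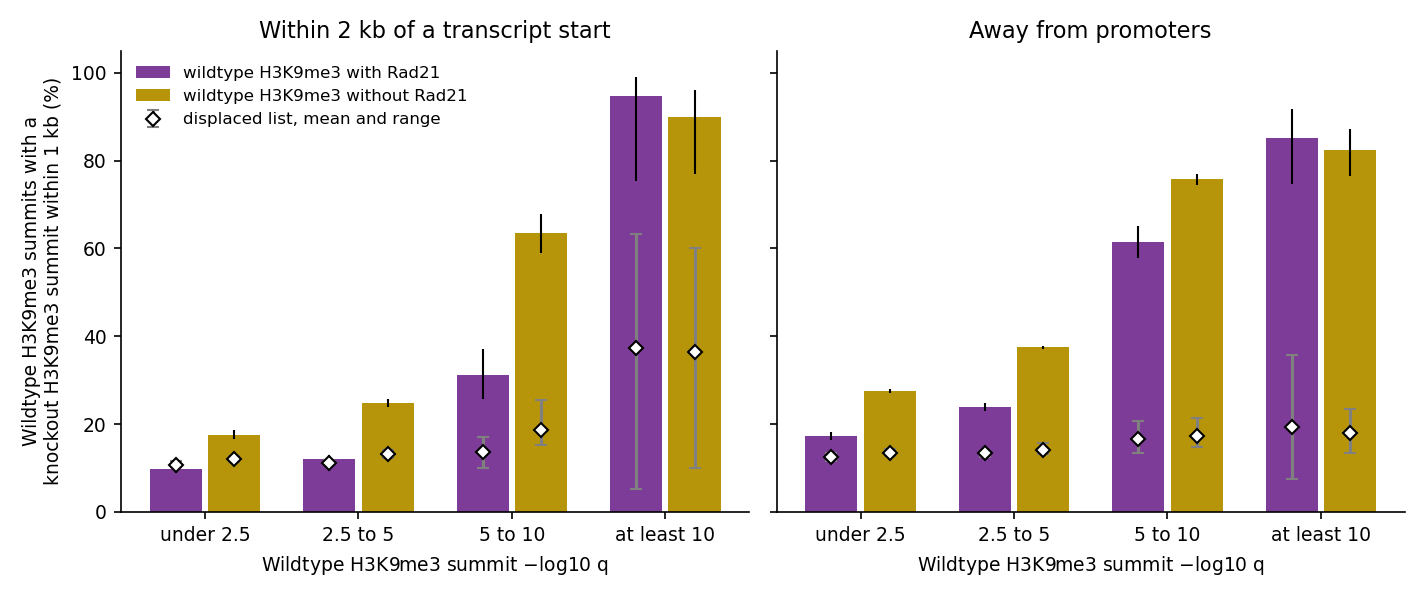
Share of WT H3K9me3 summits with a KO H3K9me3 summit within 1 kb (%), by their −log10 q class in WT cells, for summits within 2 kb of a transcript start on the left and away from promoters on the right. Purple bars have WT Rad21 within 1 kb and ochre bars have none, with 95% Wilson intervals, and diamonds give the mean and range over 10 displacements of the KO list. Below 10 each purple bar is lower than its ochre neighbour (9.67% and 17.6% at the left end), and at 10 or more their intervals overlap.

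The Rad21 summits themselves differed less by the mark. Soft-masked bases held 22.4% of those with H3K9me3 and 21.6% of those without, and their median GC content was 49.5% and 47.3%. By context the soft-masked shares differed in opposite directions. They were 13.8% with the mark and 16.6% without it at promoters, and 27.5% and 23.25% away from promoters. The Ctcf core written out above was found on either strand within 50 bp of 5.63% of Rad21 summits with the mark and 7.34% of those without, where positions moved by 2 kb gave 1.08% and 0.989%. H3K9me3 summits with Rad21 held it in 1.28% of cases against 0.947% moved.

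At the level of genes, 52.4% of 20780 autosomal protein-coding genes had a Rad21 summit within 2 kb of their start, 40.5% had WT H3K9me3 and 14.5% had KO H3K9me3. A Rad21 summit with the mark within 1 kb, called a pair here, lay within 2 kb of 5062 starts (24.4%). The mark was found at 56.0% of the starts with Rad21 and at 23.4% of those without. Of the 5062 starts with a pair, 847 (16.7%) also had KO H3K9me3, against 21.7% of the 3443 starts with WT H3K9me3 but no pair. To see which genes carried pairs, Rad21 summits were counted in gene lists between 10 kb before and 10 kb after the gene. A summit in the windows of several genes counted for each, and the intervals below do not allow for this. Over all genes, 27.6% of these counts had the mark against 19.8% displaced, a ratio of 1.39. Apart from Rad21, Ctcf, Arid1a and Smarca4, the genes named below had the most pairs in their list. That choice favours counts above the displaced mean, and it favours WT over KO H3K9me3 summits, so these are given as a description only. Over all genes the median was 3 WT and 2 KO H3K9me3 summits per gene window.

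Among the genes of H3K9 methylation itself (writers, readers and erasers), 14 of 25 starts (56.0%) held a pair, against 24.4% of all genes. Rad21 lay at 76% of these starts, against 52.4% of all genes. Of their 159 Rad21 summits, 35.2% (28.2 to 42.9) had the mark against 22.3% displaced. Cbx5 (chr15:103191544-103239816), which encodes HP1α, had 9 of 20 Rad21 summits with the mark where displacement gave a mean of 5.8, and its region held 12 H3K9me3 summits in WT and 1 in KO cells. Cbx1 (chr11:96789127-96808640), which encodes HP1β, had 9 of 11 against 3.4, with 7 WT and 4 KO H3K9me3 summits. Ehmt2 (chr17:34898469-34914052), the H3K9 mono- and dimethyltransferase G9a, had 6 of 14 against 4.7, and 9 WT but 0 KO H3K9me3 summits.

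The SWI/SNF genes had a pair at 14 of 28 starts (50%, against 24.4% of all genes) with a ratio of 1.24. Rad21 lay at 75% of their starts, against 52.4% of all genes. Smarcb1 (chr10:75896769-75921617), a core subunit, had 7 of 12 Rad21 summits with the mark against a displaced mean of 3.9, and Arid2 (chr15:96287518-96404992), a subunit of the PBAF form, had 6 of 12 against 3.6. Arid1a (chr4:133679008-133756769), the gene disrupted in KO cells by removal of an exon, had 4 of 13 against 2.7, with 12 WT and 1 KO H3K9me3 summits. Smarca4 (chr9:21616169-21704230), which encodes Brg1, had 1 of 13 against 3. Bicra (chr7:15970672-16047921), a subunit of the GBAF form, had 6 of 24 against 4.7. In the cohesin and Ctcf list 7 of 17 starts (41.2%, against 24.4% of all genes) held a pair. Rad21 lay at 70.6% of them, against 52.4% of all genes. Rad21 (chr15:51962240-51991747) itself had 1 Rad21 summit and 0 with the mark, Ctcf (chr8:105636568-105682922) had 2 of 6 against 1, and Stag1 (chr9:100597798-100959375), another cohesin subunit, had 3 of 10 against 1.8 among 34 WT and 33 KO H3K9me3 summits.

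The hepatocyte lists differed in their starts more than in their ratios. Among genes of secreted plasma proteins, 3 of 37 starts (8.11%, against 24.4% of all genes) held a pair. Rad21 lay within 2 kb of 9 of 37 (24.3%, against 52.4% of all genes). The ratio over their 96 Rad21 summits was 1.38 (18.75% against 13.5%), next to the 1.39 of all genes. Trf (chr9:103204001-103230444), which encodes the iron carrier transferrin, had 3 of 11 Rad21 summits with the mark against 1.9. Vtn (chr11:78499091-78502324), vitronectin, had 3 of 5 against 1.2, and Itih2 (chr2:10094593-10131396) had 3 of 6 against 1.5. Hepatocyte transcription factors had a pair at 8 of 20 starts (40%, against 24.4% of all genes). Rad21 lay at 60% of their starts, near the 52.4% of all genes. Their ratio was 1.53, with 32.3% (23.8 to 42.2) against 21.0% displaced, and the interval of the share includes the 27.6% of all genes. Nr1i2 (chr16:38248323-38294824), the xenobiotic receptor PXR, had 5 of 6 against 1.7, and Cebpb (chr2:167688915-167690418) 3 of 7 against 2.7.

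Imprinted genes, where H3K9me3 and Ctcf with cohesin are known at differentially methylated regions, had a pair at 10 of 38 starts (26.3%), near the 24.4% of all genes. Their ratio was 1.77, with 33.0% (26.8 to 39.9) against 18.7% displaced, and the interval of the share includes the 27.6% of all genes. Gnas (chr2:174284320-174346744) had 10 of 18 Rad21 summits with the mark against 6.3. Zrsr1 (chr11:22972005-22976496), a retrogene imprinted within an intron of Commd1, had 6 of 9 against 1, and Commd1 (chr11:22896136-22982382) had 7 of 15 against 2.3, which includes summits shared by both. Zfp zinc finger genes, many of which lie in known H3K9me3 domains, had a pair at 104 of 383 starts (27.2%), near the 24.4% of all genes, and a ratio of 1.18 beside a displaced share of 24.7%. Zfp64 (chr2:168893331-168955587) had 8 of 12 against 2 and Zfp827 (chr8:79028437-79193766) 9 of 17 against 3.8. Olfactory and vomeronasal receptor genes, silent outside sensory tissue, had a pair at 8 of 1411 starts (0.567%, against 24.4% of all genes). Rad21 lay at 36 of these starts (2.55%, against 52.4% of all genes). The ratio over their 404 Rad21 summits was 1.54, with 21.5% (17.8 to 25.8) against 14.01% displaced. Olfr56 (chr11:48978889-49135387) had 12 of 24 against 12, the same as displaced, among 62 WT H3K9me3 summits. Olfr1393 (chr11:49278304-49282769) had 3 of 5 against 0.6, and Olfr1417 (chr19:11826803-11839219) 3 of 5 against 0.8.

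Ribosomal protein genes had a pair at 29 of 79 starts (36.7%, against 24.4% of all genes). Rad21 lay at 77.2% of their starts, against 52.4% of all genes. Their ratio was 1.38, close to the 1.39 of all genes. Rpl26 (chr11:68901583-68906989) had 7 of 10 against 2.7 and 12 WT but 0 KO H3K9me3 summits, and Rpl3 (chr15:80077791-80091868) 7 of 17 against 7.3. Histone cluster genes had Rad21 at 24 of 67 starts (35.8%, against 52.4% of all genes). A pair lay at 1 of these 67 starts (1.49%, against 24.4% of all genes), and the ratio was 0.992 beside the 1.39 of all genes. Hist2h2bb (chr3:96269752-96270132) and its neighbour Hist2h3b, whose windows overlap, each had 4 of 5 Rad21 summits with the mark against 1.4. In every list the members of a cluster share summits, so genes are not independent counts.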

How the data were processed

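H3K9me3 and Rad21 were immunoprecipitated from AB17 cells with the antibodies ab8898 and ab992 (Abcam), 1 library per group. The authors used bowtie2 (mm10), filtered the alignments by quality with SAMtools, discarded duplicates with Picard and ran MACS2 with default settings and the corresponding input as the control. Tool versions and pooling are not given in the sources used here. The deposited lists give a summit and a value read here, without a header, as the −log10 q-value of the authors' MACS2 run, and no read counts. Narrow-peak calling splits broad H3K9me3 domains into strings of summits.

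Summits on 19 autosomes were paired within 1 kb and annotated with the 132629 transcript starts of GENCODE vM21 (promoter within 2 kb, then exon, intron, intergenic), and 0 summits lay beyond a chromosome end. Shares were computed with pandas 2.3.3 and numpy 2.4.6 on Python 3.11.15, and the counting was tested on simulated data. The members and gene lists were chosen with earlier results of these data known. Named sites, which leave out chromosome 18, were the highest pairs by the smaller of their percentiles (4 at promoters, 4 elsewhere), and the 3 highest summits of Rad21 with H3K9me3, of H3K9me3 with Rad21 and of H3K9me3 without Rad21 within 20 kb, and a subset of them is printed. Named genes were up to 3 per list with the most pairs, plus Rad21, Ctcf, Arid1a and Smarca4. The comparison of the strongest H3K9me3 summits by repeat annotation was added after the values were seen, and some named items are not reported here. The 2 input samples were not analysed here.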

Additional observations from a re-analysis of the deposited data

Results flagged for a closer look

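Counted from Rad21, the 2 genotypes moved in opposite directions around the same WT Rad21 summits. For all Rad21 summits the observed-to-displaced ratio of H3K9me3 within 1 kb was 1.36 with the WT list and 0.856 with the KO list, and for promoter Rad21 summits it was 1.69 with the WT list and 0.761 with the KO list. Counted from the mark, the promoter ratio was above 1 in both genotypes, at 2.15 with the WT list and 1.36 with the KO list. With 1 library per genotype the difference was not tested, and genotype cannot be told apart from library, depth or antibody efficiency.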

How the results depend on the processing

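The ratios were recomputed under 13 settings for 5 results, given here in the order Rad21 summits in all, H3K9me3 summits in all, promoter Rad21, Rad21 away from promoters and H3K9me3 of −log10 q 5 or more. Of 60 values 56 were above 1 and 17 moved by less than the counting interval. The 4 that fell below 1 all came from keeping only summits of 5 or more in both lists, which gave 0.997, 0.992, 1.43, 0.775 and 0.992. This setting leaves 5787 H3K9me3 summits, the last value is the second by construction, and the cause was not tested. A partner limit of 200 bp gave 1.83, 1.83, 2.23, 1.66 and 2.34, 500 bp gave 1.55, 1.56, 1.93, 1.39 and 1.68, and 2 kb gave 1.22, 1.22, 1.46, 1.11 and 1.235. A threshold of 3 in both lists gave 1.44, 1.42, 1.97 and 1.19, and equal numbers of summits 1.39, 1.38, 1.76 and 1.23. Merging summits closer than 3 kb gave 1.51, 1.51, 1.97, 1.33 and 1.60, and leaving out soft-masked summits 1.57, 1.57, 2.12, 1.30 and 1.50. Displacement of 10 to 20 kb only moved both values over all summits to 1.34 and 1.34, a promoter limit of 5 kb the promoter value and the one away from promoters to 1.49 and 1.23, and leaving out the densest 1% of 10 kb windows the promoter value to 1.72. Adding X and Y moved none beyond the interval, nor did leaving out chromosomes 12, 13 and 14, which was chosen after seeing the data. No paired analysis was possible because each group has 1 library, and no replicate could be left out. Without counts, depth sets an unknown limit on weak summits.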
